A study of Mus musculus with 21 samples.

Results

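Immature conventional dendritic cells of type 2 (cDC2) were compared between the thymus and the spleen by RNAseq, across all genes. The comparison used 6 of the 21 libraries of the series, 3 labelled immature thymic cDC2 and 3 labelled immature splenic cDC2. These members were chosen by their labels, with earlier results of these data known. The mice were C57BL/6 animals aged 6 to 8 weeks and none of the labels names a treatment or an altered allele. In both tissues CD11c+ cells were enriched on magnetic beads after enzymatic digestion, and cDC2 were then sorted as B220- CD24- CD11b+ CD11c+ cells. Immature meant negative for CCR7 and ESAM at the surface, so that cells bearing ESAM were left out in both tissues. The labels list exclusion of F4/80, Ly6g, Ly6c and DX5 for the cDC1 sort and not for the cDC2 sort. In the paper's methods, however, F4/80 staining was part of the sort of each cDC subset. The paper also defines both subsets, in NOD mice, as negative for F4/80. Each library came from a pool of animals and no pool gave cDC2 of both tissues. The p-values use a spread fitted for each gene over all 6 groups of the series, with cDC1 and mature cells included. Some of those samples share a pool, so that p-values do not measure the spread between cDC2 pools alone. Levels are normalized read counts, that is, reads of a gene in a library divided by the size factor of that library. They are not scaled to gene length, so that levels are compared between libraries and not between genes.

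cDC2 are dendritic cells that take up antigen, present it on class II molecules to CD4+ T cells and depend in part on the transcription factor IRF4. In the spleen a fraction of them that carries ESAM requires Notch2 signaling, and it lies near the marginal zone. In the thymus cDC2 are mostly cells that entered from the blood, and they present blood-borne and self antigen to developing thymocytes during negative selection and the formation of regulatory T cells.

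The labels were first checked against marker genes. Sirpa, the surface receptor used to tell cDC2 from cDC1, stood at 16706, 13773 and 15428 in the thymic and 20847, 18967 and 28215 in the splenic libraries. In the immature cDC1 libraries it averaged 234 ± 42.2 (SD, n = 4) in the thymus and 1094 ± 339 (SD, n = 4) in the spleen. Irf8, the transcription factor that specifies cDC1, ran the other way, at 2467 ± 655 in thymic and 1353 ± 491 in splenic cDC2 (SD, n = 3) and 54208 ± 3833 and 46583 ± 9947 in the cDC1 (SD, n = 4). The levels of both genes thus went with the cDC2 label in either tissue. The paper lists Sirpα among the antibodies of its cDC sort, so that Sirpa is a check of the sort only. Between the tissues, the wider lists of cDC2 and cDC1 markers, given below, each moved in both directions.

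Ccr7, the chemokine receptor that guides mature DCs and on whose absence the cells were sorted, was at 2662, 3608 and 3986 in the thymus and 3907, 2008 and 5433 in the spleen, against 99928 ± 13553 in mature thymic cDC2 (SD, n = 3). The 3 thymic values lay within the splenic range. Of the other genes of the sort, Itgax (CD11c) was close in the tissues (log2 fold change -0.55 ± 0.22 (SE), limma adjusted p = 0.0844) and was not called. Esam, Itgam (CD11b) and Ptprc, which encodes CD45 and its B220 form, were lower in the thymus by the rule used below, at -3.31, -1.94 and -1.51 on the log2 scale, though Itgam was not called without thymic replicate 3 (-1.73, limma adjusted p = 0.130). Cd24a was higher (log2 fold change 2.23 ± 0.22 (SE), limma adjusted p = 2.61e-07). Its thymic values of 1536, 2231 and 2558 remained far under those of thymic cDC1, which averaged 12152 ± 555 (SD, n = 4). Because the cells were gated on these proteins, their genes are given as a check of the sort.

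Depth ranged from 14266867 to 35509965 reads over the 6 libraries. Of 14966 genes tested, 2120 were called different between thymic and splenic immature cDC2, or 14.2% (limma, at a p below 0.1 after Benjamini-Hochberg adjustment and a change of over 2-fold, that is, above 1 on the log2 scale). Of these, 1242 were higher in the thymus, 8.3% of the genes tested, and 878 were lower, 5.87%. The median log2 fold change of all genes was 0.0208. RNA was measured in bulk, so that fewer cells of a type and less RNA per cell cannot be told apart. The values of the 3 thymic and 3 splenic libraries did not overlap for 2065 of the called genes, while 5880 of all genes tested, 39.3%, showed no overlap. Among the called genes, 1326 reached a mean of at least 100 in the higher tissue (735 higher in the thymus, 591 lower), 672 a mean of 10 to 100 and 122 a lower one. For 120 called genes, 101 of them higher in the thymus, one tissue held no read in any library.

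**Figure D1:**
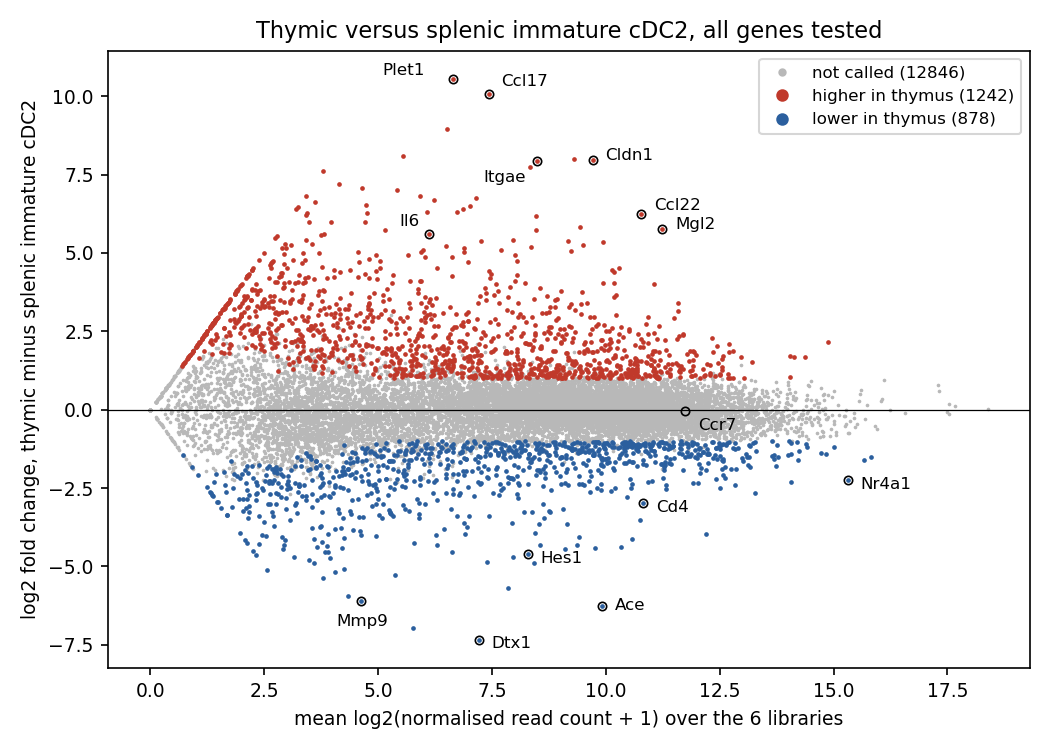
Log2 fold change of thymic over splenic immature cDC2 (y axis) against the mean log2 level over the 6 libraries (x axis), each point 1 of the 14966 genes tested. Of the coloured points, 1242 are called higher in the thymus and 878 lower, and the 12846 genes in grey are not called.

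Libraries of both tissues were run in sequencing lanes 5 and 8. Lane 5 held thymic replicate 1 and splenic replicates 1 and 2, and lane 8 held thymic replicates 2 and 3 and splenic replicate 3. Of the 2120 called genes, 2109 had the same direction within lane 5 and 2120 within lane 8, and 1697 exceeded 2-fold in both. The genes were called on these same libraries, and for the 2065 without overlap the direction could not differ, so that these counts do not test the lane. Splenic replicate 2 stood apart from the other splenic libraries, where chi-square per degree of freedom was 106 and 132 against replicates 1 and 3, which differed from each other by 35.3. Between the thymic libraries it was 20.9 to 37.7. Without splenic replicate 2 the count of called genes was 2114, of which 1789 were among the 2120. The percentage of reads on mitochondrial genes was 1.63 to 1.87 in the thymic libraries and 0.844 to 1.69 in the splenic ones, and its part in the results was not tested.

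Ccl17 and Dtx1 had been chosen as the marker genes of the comparison, with earlier results of these data known. Ccl17 (ENSMUSG00000031780, chr8:94810453-94812036, plus strand, GRCm38) encodes a chemokine that attracts CCR4+ cells, among them thymocytes after positive selection. Its levels were 5196, 5284 and 6586 in the 3 thymic libraries and 10.98, 0 and 11.4 in the 3 splenic ones. The thymic values were close together, and the highest splenic value was 11.4 (log2 fold change 10.06 ± 0.71 (SE), limma adjusted p = 3.14e-09). Dtx1 (ENSMUSG00000029603, chr5:120680202-120711927, minus strand) encodes Deltex-1, an E3 ubiquitin ligase and a well-known target of Notch signaling. It was at 11.7, 29.5 and 3.12 in the thymus and at 2098, 1239 and 2607 in the spleen, with no overlap (log2 fold change -7.34 ± 0.97 (SE), limma adjusted p = 1.38e-05). Both directions also held within lane 5 and within lane 8, as they must where the libraries do not overlap.

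The promoters of these genes and of Plet1, the gene with the largest rise, are shown because the Notch effector RBPJ binds TGGGAA and the IL-4 and IL-13 effector STAT6 binds TTC and GAA spaced by 4 bases, here called the STAT6 motif. Each sequence holds 250 bases before and 50 bases after the start site, 5′ to 3′ on the strand of the gene, from RefSeq (GRCm38.p6). Capitals mark matches to either motif on either strand.
Ccl17, chr8:94810203-94810502, plus strand: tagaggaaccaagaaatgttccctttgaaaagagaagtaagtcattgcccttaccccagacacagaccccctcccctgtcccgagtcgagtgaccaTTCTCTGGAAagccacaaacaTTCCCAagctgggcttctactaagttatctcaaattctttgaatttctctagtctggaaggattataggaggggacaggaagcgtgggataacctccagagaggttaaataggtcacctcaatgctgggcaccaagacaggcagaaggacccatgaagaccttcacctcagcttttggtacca
Dtx1, chr5:120711620-120711919, minus strand: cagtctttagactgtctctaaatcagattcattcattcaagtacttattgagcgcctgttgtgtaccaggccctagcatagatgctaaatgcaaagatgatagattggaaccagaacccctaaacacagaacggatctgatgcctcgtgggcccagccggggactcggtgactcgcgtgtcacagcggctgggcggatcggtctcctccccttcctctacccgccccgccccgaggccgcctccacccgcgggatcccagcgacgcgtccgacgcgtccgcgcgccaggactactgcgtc
Plet1, chr9:50494275-50494574, plus strand: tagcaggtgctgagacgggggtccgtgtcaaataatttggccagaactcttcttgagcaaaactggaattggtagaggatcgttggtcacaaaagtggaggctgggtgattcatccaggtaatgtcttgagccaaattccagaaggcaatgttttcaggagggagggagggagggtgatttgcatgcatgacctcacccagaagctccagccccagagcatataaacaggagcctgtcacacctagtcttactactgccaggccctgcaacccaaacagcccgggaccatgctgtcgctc
The window of Ccl17 held 1 match to the STAT6 motif, from -154 to -145 relative to the start site, and 1 match to the reverse complement of TGGGAA, from -133 to -128, and they do not overlap. Neither motif was found in the windows of Dtx1 and Plet1. The window of Dtx1 follows the RefSeq start site and lies within the gene span given above, so that bases upstream of that span were not searched. Of 32851 promoters of the same length, 25.6% held TGGGAA, 6.95% held the STAT6 motif and 2.17% held both. A match describes the letters of the window and does not show that a factor is bound.

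The largest rises, in order, were those of Plet1, Ccl17, Aqp3, Cxcr2, Cdh1 and Cldn1. They were taken from called genes with a mean of at least 100 in the higher tissue and no overlap between the tissues. Plet1, a surface glycoprotein known from thymic and other epithelial progenitors and listed in the files as 1600029D21Rik (chr9:50494525-50505482, plus strand), was at 3372, 3651 and 4703 in the thymic libraries. The splenic libraries had 5.49, 0 and 1.63, and the groups did not overlap (log2 fold change 10.55 ± 0.9 (SE), limma adjusted p = 4.83e-08). Its exons overlap those of the antisense gene Plet1os, and whether the counting used strand is not given in the sources used here. Aqp3, a channel for water and glycerol, was at 2218, 1782 and 2136 in the thymus and 15.6, 0.625 and 1.63 in the spleen (log2 fold change 8.94 ± 0.89 (SE), limma adjusted p = 3.50e-07).

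Cldn1, a tight junction protein, was at 11039.8, 15255 and 13654 against 76.9, 66.9 and 27.7 (log2 fold change 7.95 ± 0.31 (SE), limma adjusted p = 9.60e-13), and Cdh1, E-cadherin, at 9881, 9386 and 10877 against 54.9, 34.99 and 29.3 (log2 fold change 7.99 ± 0.85 (SE), limma adjusted p = 8.25e-07). Epcam, an adhesion molecule of epithelia and Langerhans cells, was at 3391, 3443 and 3715 against 86.9, 152 and 84.7 (log2 fold change 5.07 ± 0.29 (SE), limma adjusted p = 1.78e-10). Itgae, the integrin CD103 that binds E-cadherin and also a marker of cDC1, was 7.92 ± 0.39 higher on the log2 scale (limma adjusted p = 4.35e-11). In each of these genes every thymic library lay above every splenic one, which the rule of choice required of Cldn1, Cdh1 and Itgae. The genes of thymic epithelium itself are taken up with the other cell types below.

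Cxcr2, the receptor for neutrophil-attracting chemokines, was at 873, 638 and 855 in the thymus and 0, 4.37 and 3.26 in the spleen (log2 fold change 8.11 ± 0.92 (SE), limma adjusted p = 2.01e-06). Susd4, a membrane protein that restrains complement, had no read in the 3 splenic libraries and 159, 177 and 254 in the thymic ones, at least 62.1-fold higher against a floor of 3 reads per library. Alox15, a lipoxygenase induced by IL-4 and IL-13 in myeloid cells, was at 267, 227 and 405 against 0, 9.37 and 0 (log2 fold change 7.06 ± 0.87 (SE), limma adjusted p = 5.10e-06). Slfn4, a Schlafen family member regulated in myeloid cells, differed by 7.0 ± 0.76 (limma adjusted p = 1.17e-06). Igha, the constant region of IgA, was at 159, 214 and 288 in the thymus and 0.915, 0.625 and 0 in the spleen.

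The largest falls, taken by the same rule and in order, were those of Dtx1, Hic1, Ace and Mmp9. Hic1, a transcriptional repressor, was at 12.8, 7.37 and 0 in the thymic and 648, 314 and 1103 in the splenic libraries (log2 fold change -6.97 ± 1.19 (SE), limma adjusted p = 2.21e-04). Ace, the angiotensin-converting enzyme, was at 167, 175 and 45.2 against 9757, 5542 and 11336 (log2 fold change -6.26 ± 0.88 (SE), limma adjusted p = 2.69e-05), and its exons overlap the antisense gene Gm11651. Mmp9, a gelatinase that helps DCs cross basement membrane, was at 0, 2.68 and 6.23 against 201, 171 and 248 (log2 fold change -6.1 ± 0.98 (SE), limma adjusted p = 1.21e-04). No thymic value of these 3 genes reached the lowest splenic one, as the rule of choice required.

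Lphn3 (Adgrl3), an adhesion G protein-coupled receptor, fell by more than 5 on the log2 scale (-5.68 ± 0.62, limma adjusted p = 1.16e-06), as did Fat2, an atypical cadherin (-5.95 ± 0.82, limma adjusted p = 2.17e-05), and Ffar1, a receptor for long-chain fatty acids (-5.28 ± 0.68, limma adjusted p = 1.05e-05). Gzma, a granzyme of cytotoxic lymphocytes, and S1pr5, a sphingosine-1-phosphate receptor, were at 7.47, 0 and 1.56 and 8.54, 2.68 and 0 in the thymus. Their splenic values were 165, 66.9 and 87.99 and 238, 39.4 and 143. Clec4a4, the lectin DCIR2 recognized by the antibody 33D1 on splenic cDC2, was at 25.6, 119 and 76.3 in the thymus and 1704, 2863 and 1336 in the spleen (log2 fold change -4.9 ± 0.7 (SE), limma adjusted p = 3.41e-05). Cacna1e, a voltage-gated calcium channel subunit, and the long non-coding RNA 5830416P10Rik (Mirt1) were the remaining genes of this set, at -4.86 and -4.7. Exons of Lphn3, S1pr5 and 5830416P10Rik also overlap a gene of the other strand, as do those of Ctsl, Cd7, Jak1, Stat6, H2-Oa, Pdia3, Pvrl2, Pdgfa, Il1b, Bhlhe40, Ccna2, Ccnd1, Zfp36, Slc30a4, Mt2, Stab1, Elmo1, Dpp4, Satb1, Irf7, Padi1, Cish and Krt5, each named with its values elsewhere in the text.

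**Figure D2:**
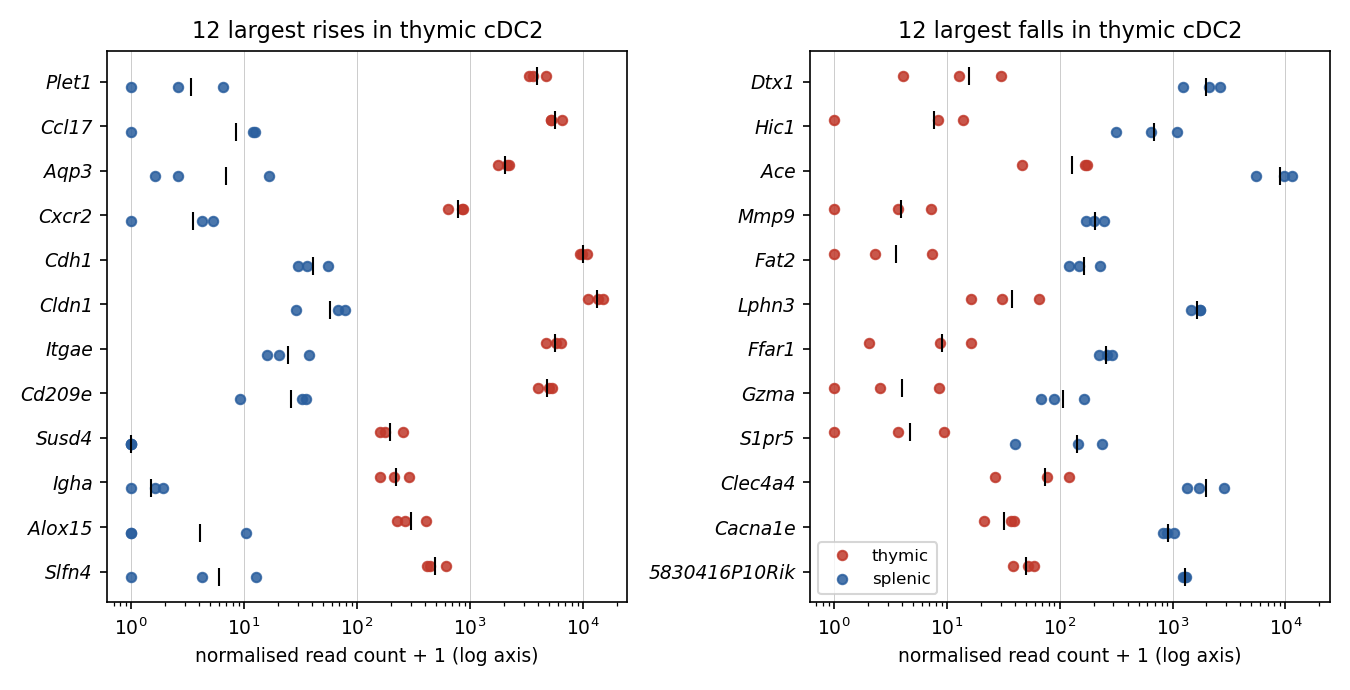
Normalized read count plus 1 on a log axis (x axis) in each of the 3 thymic and 3 splenic libraries, for the 12 called genes with the largest rise and the 12 with the largest fall in the thymus (y axis). Each point is 1 library, red for thymic and blue for splenic, and the upright tick is the mean of 3 libraries. The 24 genes were chosen among those with a mean of at least 100 in the higher tissue and no overlap between thymic and splenic libraries.

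The counts of the gene lists that follow are read against 8.3% higher and 5.87% lower over all genes. The lists were chosen with earlier results of these data known, and some genes are on more than 1 list. Their shares are therefore descriptions and not independent tests. The list of Notch pathway genes, of ligands, receptors, processing enzymes, coactivators and targets, had 33 members tested, of which 0 were higher and 5 lower in the thymus, or 15.2%. These 5 were Dtx1, Hes1, Jag1, Itch and Lfng, the last of which was named after its values were seen. Hes1, a repressor induced by Notch, was at 80.1, 79.7 and 37.4 in the thymic and 1512, 1699 and 1445 in the splenic libraries (log2 fold change -4.62 ± 0.64 (SE), limma adjusted p = 2.43e-05). Jag1, a Notch ligand, and Itch, a ubiquitin ligase of the pathway, fell by less (-1.66 and -1.27), as did Lfng, which glycosylates Notch receptors (-1.13) and which was not called without splenic replicate 3 (-0.83, limma adjusted p = 0.0961).

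The genes of the receptor and of its DNA-binding partner were not called over all 6 libraries. Notch2 was at 5246, 5807 and 5027 in the thymus and 9363, 6704 and 12492 in the spleen (log2 fold change -0.79 ± 0.2 (SE), limma adjusted p = 0.00817), and Rbpj at 7801, 9958 and 7893 against 5236, 4894 and 5045 (log2 fold change 0.75 ± 0.19 (SE), limma adjusted p = 0.00632). The median over the list was -0.12, and 28 of the 33 members were not called. Without splenic replicate 2, 8 members were called lower, Notch2 among them (-1.02, limma adjusted p = 0.00102).

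Of 10 genes known from the ESAM-high splenic cDC2, 4 were lower (40%) and 1 higher, with a median of -0.98, though ESAM+ cells had been gated out of both tissues. Besides Dtx1 and Clec4a4, Cd4, the coreceptor carried by most splenic cDC2, fell from 4524, 5379.9 and 5489.8 in the spleen to 589, 560.5 and 808 in the thymus (log2 fold change -2.99 ± 0.36 (SE), limma adjusted p = 4.75e-06). Tbx21, the transcription factor T-bet, was lower, at -2.71 ± 0.41 on the log2 scale (limma adjusted p = 5.60e-05). Nr4a3 and Adam23 of this list were not called (-0.92 and -0.35). Esam itself was at 1.07, 8.705 and 14.02 in the thymus and 86.9, 68.7 and 47.3 in the spleen.

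Among 14 genes of ESAM-low or monocyte-like cDC2, 3 were higher and 2 lower, and the median was -0.34. Ccr2, the receptor that brings monocytes out of bone marrow, was at 12282, 11607 and 10539 in the thymus and 2218, 2969 and 1926 in the spleen (log2 fold change 2.3 ± 0.77 (SE), limma adjusted p = 0.0387), and was not called without splenic replicate 3 (2.16, limma adjusted p = 0.114). Its call was kept in edgeR, in DESeq2 and in limma on the 6 libraries alone. Lyz2, lysozyme of myeloid cells, was not called (0.44), and Fcgr4, an activating receptor for IgG, fell (log2 fold change -3.38 ± 0.75 (SE), limma adjusted p = 0.00265). Only 1 member was called lower when any 1 of thymic replicates 1, 2 and 3 and splenic replicates 1 and 3 was left out. Of 12 cDC2 markers, 2 were higher (Mgl2 and Clec10a) and 4 lower, including Cd7, a surface receptor of the immunoglobulin superfamily (-2.19 ± 0.41, limma adjusted p = 6.11e-04). Of 10 genes shared by all cDCs, Kit alone was called, at -1.12 ± 0.15 (limma adjusted p = 1.57e-05).

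**Figure D3:**
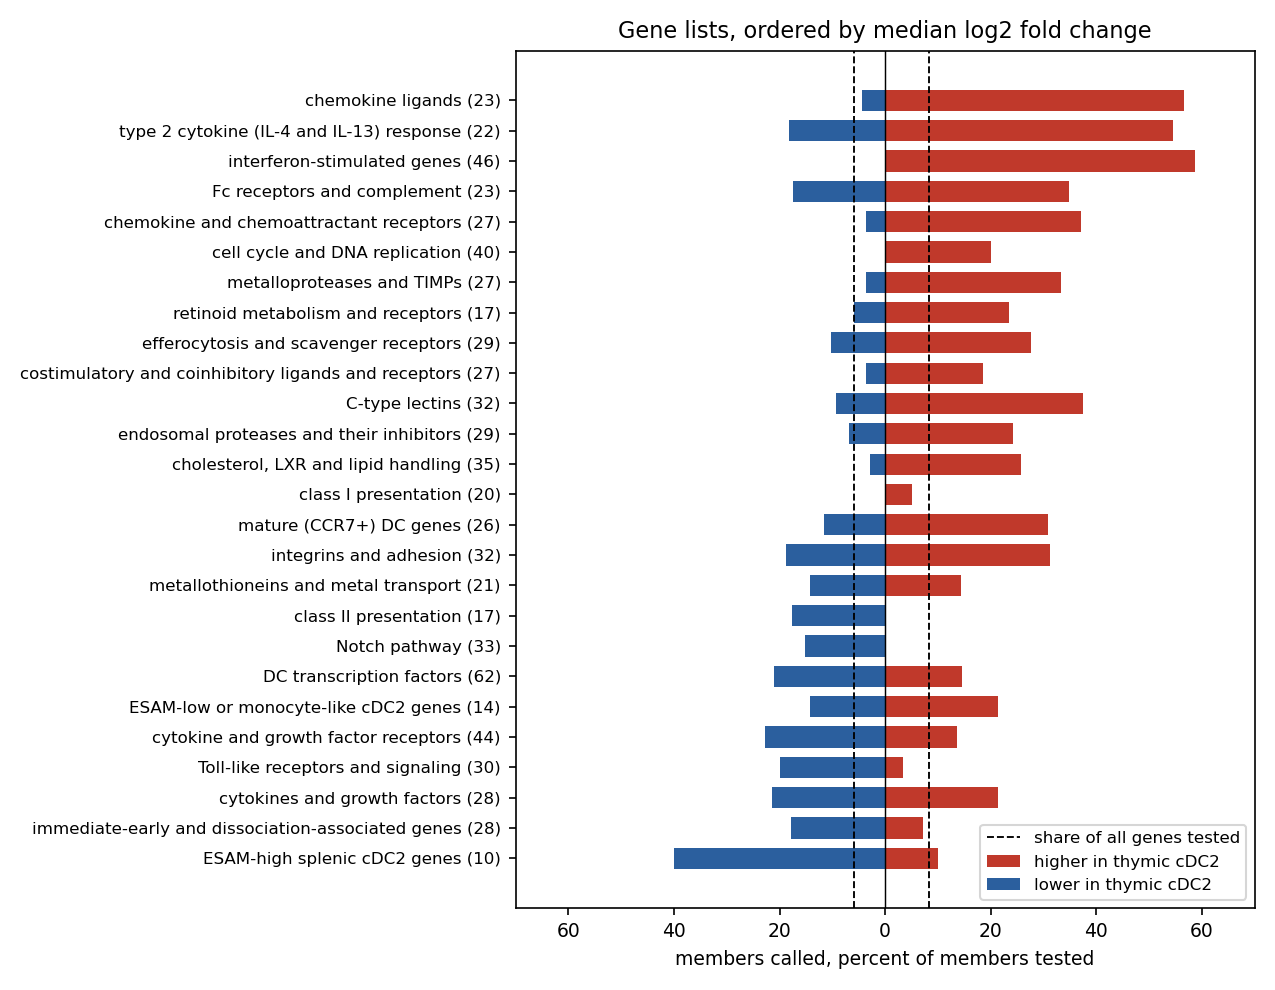
Percent of the tested members of each gene list, other than the marker lists and those of other cell types (y axis, number tested in brackets) that were called higher (red, to the right of 0) or lower (blue, to the left of 0) in thymic than in splenic immature cDC2 (x axis), with the lists ordered by their median log2 fold change and the shares of all genes tested, 8.3% higher and 5.87% lower, as dashed lines. The red bars of interferon-stimulated genes (58.7%), chemokine ligands (56.5%) and the type 2 response (54.5%) are the longest of those plotted, and the Notch list has a blue bar (15.2%) and no red one. Some lists share members, and all were chosen with earlier results of these data known.

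Of 22 genes tested that respond to IL-4 and IL-13, 12 were higher (54.5%) and 4 lower (18.2%), with a median log2 fold change of 1.72. The marker gene Ccl17 and also Ccl22 are on this list and are counted again among the chemokine ligands. Ccl22, which attracts the same CCR4+ cells as Ccl17, was at 13088, 13958 and 19670.0 in the thymic and 216, 117 and 323 in the splenic libraries (log2 fold change 6.24 ± 0.27 (SE), limma adjusted p = 3.99e-12). Retnla, the resistin-like molecule RELM-alpha of alternatively activated macrophages, had 278, 93.7 and 54.5 in the thymus and no read in any splenic library, at least 44.8-fold higher against 3 reads per library, or 23.4-fold without thymic replicate 1. Mgl2, a galactose-binding lectin also on the cDC2 list, was at 17451, 17219.9 and 18706 against 359.7, 316 and 314 (log2 fold change 5.75 ± 0.82 (SE), limma adjusted p = 3.37e-05).

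Alox15, given above, belongs to the same list. Cish, a feedback inhibitor of STAT signaling named after its values were seen, was at 1419, 1547 and 2023 against 36.6, 43.7 and 32.6 (log2 fold change 5.42 ± 0.56 (SE), limma adjusted p = 5.96e-07). The genes of the signaling chain itself, Jak1 (-0.25) and Stat6 (-0.16), were not called. Cish, Jak1 and Stat6 share exon sequence with a gene of the other strand.

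Chemokine ligands were higher in the thymus in 13 of 23 genes tested (56.5%) and lower in 1, with a median of 1.92, or 1.60 when the 2 genes with no read in one tissue were set to their bound. Ccl24, an eosinophil attractant, was at 128, 104 and 140.2 in the thymus and 1.83, 0 and 1.63 in the spleen, and Cx3cl1, fractalkine, at 215, 218 and 229 against 16.5, 9.996 and 17.9 (log2 fold change 3.85 ± 0.37 (SE), limma adjusted p = 2.81e-07). Ccl3 and Ccl4, inflammatory chemokines, were not called, with log2 fold changes of -1.1 and 0.34, though Ccl3 was called lower in edgeR and DESeq2 (adjusted p = 0.0413 and 0.0239) and in limma on the 6 libraries alone (adjusted p = 0.00172). Ccl5, a chemokine that attracts T cells, was the member that fell, from 1499, 1522 and 1765 in the spleen to 218, 125 and 206 in the thymus (log2 fold change -3.16 ± 0.33 (SE), limma adjusted p = 7.96e-07).

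Receptors for chemokines and other attractants were higher in 10 of 27 genes (37.0%) and lower in 1. Beside Cxcr2 and Ccr2, C3ar1, the receptor for complement fragment C3a, was at 232, 110.5 and 187 in the thymus and 8.24, 6.25 and 1.63 in the spleen (log2 fold change 4.92 ± 1.08 (SE), limma adjusted p = 0.00247). P2ry14, a receptor for UDP-sugars, differed by 3.88 ± 0.42 (limma adjusted p = 9.33e-07) and Ccr1, a receptor for CCL3 and CCL5, by 2.79 ± 0.51 (limma adjusted p = 4.52e-04). Cxcr4 and Ptafr, receptors for CXCL12 and platelet-activating factor, were not called and had the values -0.63 and -0.85.

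Interferon-stimulated genes were higher in 27 of the 46 tested (58.7%) and lower in 0, with a median of 1.40. Ly6a (Sca-1) was at 4361, 6884 and 7123 in the thymic and 339.5, 221 and 241 in the splenic libraries, with no overlap (log2 fold change 4.51 ± 0.37 (SE), limma adjusted p = 3.06e-08). Ifi44 was at 1191, 1778 and 1492 against 98.8, 129 and 129 (log2 fold change 3.62 ± 0.3 (SE), limma adjusted p = 2.94e-08), and the antiviral gene Ifit1 at 1838, 2178 and 2005 against 177, 352 and 231 (log2 fold change 3.04 ± 0.37 (SE), limma adjusted p = 4.41e-06). Irf7, the transcription factor that amplifies the interferon response, was at 10072, 12262 and 11561 against 3200.3, 1887 and 3484 (log2 fold change 2.03 ± 0.37 (SE), limma adjusted p = 4.71e-04). Ly6e and Parp14 were not called, with log2 fold changes of 0.76 and 0.53. The Ly6 and Ifit genes belong to families of near copies, and reads that fit several of them may have been lost or split in the counting.

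C-type lectins, which bind glycans of microbes and of the host, were higher in 12 of 32 genes (37.5%) and lower in 3. Cd209e and Cd209d, relatives of DC-SIGN, had 4017, 5354 and 5000.1 and 3936, 4091 and 5634 in the thymus. In the spleen they were at 34.8, 31.9 and 8.15 and 200.4, 74.97 and 104 (log2 fold change 7.75 ± 0.55 (SE), limma adjusted p = 3.47e-09 and log2 fold change 5.26 ± 0.82 (SE), limma adjusted p = 9.15e-05). Cd209a, the family member usual on cDC2, was at 17259, 19971 and 18644 against 9985, 10812 and 9695, not overlapping but not called (log2 fold change 0.87 ± 0.65 (SE), limma adjusted p = 0.396). Clec10a, the close relative of Mgl2, was at 3859, 4111 and 3558 against 981, 521 and 1015 (log2 fold change 2.25 ± 0.57 (SE), limma adjusted p = 0.00712). Clec7a, the beta-glucan receptor Dectin-1, was not called (0.46). Members of the Cd209 family resemble each other, and the split of their reads is uncertain.

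Of 30 genes of Toll-like and related receptors and their signaling partners, 6 were lower (20%) and 1 higher, and the median was -0.36. Nod1, a cytosolic sensor of peptidoglycan, was at 911, 963 and 774 in the thymus and 4542, 3083 and 5742 in the spleen (log2 fold change -2.29 ± 0.25 (SE), limma adjusted p = 9.33e-07). Tlr7, which senses single-stranded RNA, was at 444, 361 and 335 against 2063, 2721 and 1768 (log2 fold change -2.51 ± 0.81 (SE), limma adjusted p = 0.0335), and Tlr5, which senses flagellin, at 173, 180.1 and 185 against 468, 686 and 585 (log2 fold change -1.67 ± 0.66 (SE), limma adjusted p = 0.0836). The call of Tlr5 was lost whichever 1 of the 6 libraries was left out, at limma adjusted p = 0.121 to 0.176, and with the lane as a covariate (limma adjusted p = 0.133). It was kept in edgeR, in DESeq2 and in limma on the 6 libraries alone. Tlr12, a sensor of a protozoan profilin, was the member that rose (log2 fold change 1.69 ± 0.34 (SE), limma adjusted p = 0.00122). The kinase gene Irak1 and the Toll-like receptor partner gene Ly86 were at -0.62 and 0.21 and were not called.

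Most antigen presentation genes were not called. Of 17 class II genes, 0 were higher and 3 lower. The lower ones were H2-Oa and H2-Ob, which encode the chains of H2-O, the inhibitor of peptide exchange by H2-M, and H2-Eb2. H2-Oa was at 2675, 3155 and 3506 in the thymic and 7795, 6388 and 7927 in the splenic libraries (log2 fold change -1.25 ± 0.2 (SE), limma adjusted p = 1.43e-04). H2-Ob (-1.03 ± 0.18, limma adjusted p = 2.69e-04) and H2-Eb2 (-1.05 ± 0.18, limma adjusted p = 2.26e-04) were just past the 2-fold limit, and without thymic replicate 1 they were not called (-0.95 and -0.97). Cd74, the invariant chain, and H2-Aa, the class II alpha chain, overlapped between tissues and had log2 fold changes of 0.024 ± 0.4 and 0.1 ± 0.33.

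Of 20 class I genes only Pdia3, the disulfide isomerase ERp57 of the peptide-loading complex, was called. It was at 30252, 31310.2 and 35429 against 9917, 12405 and 8465 (log2 fold change 1.67 ± 0.18 (SE), limma adjusted p = 7.96e-07), while B2m and H2-K1, the light and a heavy chain, had 0.28 and -0.52. Among the endosomal proteases and their inhibitors, 7 of 29 were higher (24.1%) and 2 lower. Prss16, thymus-specific serine protease (TSSP), was at 50.2, 25.4 and 21.8 in the thymus and 1.83, 5.62 and 4.89 in the spleen (log2 fold change 2.71 ± 0.7 (SE), limma adjusted p = 0.00845). Ctss, cathepsin S, was at 40133, 40218 and 40617 against 29992, 26148 and 25006, without overlap but under 2-fold (log2 fold change 0.58 ± 0.15 (SE), limma adjusted p = 0.0085). Ctsl, cathepsin L, was not called (log2 fold change -0.65 ± 0.26 (SE), limma adjusted p = 0.0903), nor was Ctsh, cathepsin H (0.23).

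The inhibitors moved in both directions. Serpinf1, Serpinb9 and Serpinb6b, the last of a family of near copies among which the split of reads is uncertain, were higher, at 3.4 ± 0.75, 2.15 ± 0.2 and 1.89 ± 0.24 on the log2 scale (limma adjusted p = 0.00244, 2.09e-07 and 9.78e-06). Serpinb9 encodes the inhibitor of granzyme B. Serpinb2, the plasminogen activator inhibitor PAI-2, was lower, at 4.27, 4.02 and 7.79 in the thymus and 111, 141 and 58.7 in the spleen (log2 fold change -4.0 ± 1.02 (SE), limma adjusted p = 0.00776).

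Integrins and other adhesion genes were higher in 10 of 32 tested (31.2%) and lower in 6 (18.8%). Beside Cdh1, Itgae and Epcam, Itga1, the alpha chain of a collagen receptor, was at 305, 281 and 310.0 in the thymus and 33.9, 21.9 and 35.8 in the spleen (log2 fold change 3.28 ± 0.29 (SE), limma adjusted p = 7.35e-08). Itgb2, the common beta chain of the leukocyte integrins, was at 9806, 9300.0 and 9430.0 against 16059.9, 11456 and 17696 and was not called (-0.64). Metalloproteases and their inhibitors were higher in 9 of 27 (33.3%) and lower in 1, Mmp9. Mmp25, a membrane-anchored protease, was at 1360.0, 1239 and 1699 against 73.2, 23.1 and 53.8 (log2 fold change 4.95 ± 0.31 (SE), limma adjusted p = 7.11e-10).

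Mmp2, a gelatinase like Mmp9, was called in the other direction, at 87.5, 64.95 and 128 in the thymus and 0.915, 0 and 0 in the spleen. Timp2, its inhibitor, was also higher (log2 fold change 3.59 ± 0.71 (SE), limma adjusted p = 9.37e-04). Dpp4, the surface peptidase CD26, was not called (-0.86). The median of this list was 0.75, or 0.68 with the gene that had no read in one tissue at its bound, and without splenic replicate 2 or 3 the members called lower numbered 2.

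Receptors for antibody and complement components were higher in 8 of 23 genes (34.8%) and lower in 4 (17.4%). C1qa, C1qb and C1qc, the chains of C1q, which were named after their values were seen, rose together, with C1qa at 2797, 1614 and 2456 against 444, 251 and 385 (log2 fold change 2.67 ± 0.89 (SE), limma adjusted p = 0.0393). C1qb and C1qc differed by 2.52 ± 0.79 and 2.46 ± 0.87 (limma adjusted p = 0.0284 and 0.0517). Cfb, factor B of the alternative pathway, was at 113, 24.8 and 84.1 against 0.915, 1.25 and 8.15 (log2 fold change 4.21 ± 0.87 (SE), limma adjusted p = 0.0015), and Fcrla, an intracellular Fc receptor-like protein, at 196, 255 and 313 against 15.6, 16.9 and 9.78 (log2 fold change 4.09 ± 0.46 (SE), limma adjusted p = 1.87e-06). The call of C1qa was lost without thymic replicate 1 or 3 or splenic replicate 2 (limma adjusted p = 0.106, 0.108 and 0.102), as was that of C1qc (limma adjusted p = 0.129, 0.131 and 0.140), and that of C1qb without thymic replicate 3 (2.34). The count of higher members was 5 without thymic replicate 1 or splenic replicate 2 and 4 without thymic replicate 3. Genes of macrophages, which also make C1q, are given with the other cell types.

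Scavenger and efferocytosis genes were higher in 8 of 29 tested (27.6%) and lower in 3, or 1 without splenic replicate 3. Mrc1, the mannose receptor, was at 2582, 2269.9 and 1944 in the thymus and 196, 242 and 220.0 in the spleen (log2 fold change 3.36 ± 0.51 (SE), limma adjusted p = 6.47e-05). Timd4 and Havcr1, both receptors for phosphatidylserine on dying cells, were at 531, 898 and 827 and 40.6, 79.7 and 118 in the thymus. In the spleen they were at 45.8, 56.9 and 53.8 and 1.83, 0 and 3.26, with no overlap. Stab1, stabilin-1, was higher as well (log2 fold change 3.26 ± 0.78 (SE), limma adjusted p = 0.00493). Elmo1 and Lrp1, an engulfment adaptor and a receptor, were not called (-0.66 and -1.19).

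Costimulatory and coinhibitory genes were higher in 5 of 27 (18.5%) and lower in 1. Pvrl2 (Nectin-2), a ligand of TIGIT and CD226, was at 202, 175 and 192 in the thymus and 25.6, 6.87 and 48.9 in the spleen (log2 fold change 3.12 ± 0.57 (SE), limma adjusted p = 4.94e-04), and Cd200, which engages an inhibitory receptor, at 188, 294 and 273 against 45.8, 63.7 and 60.3 (log2 fold change 2.12 ± 0.23 (SE), limma adjusted p = 9.62e-07). Lgals9, galectin-9, was higher (log2 fold change 1.87 ± 0.3 (SE), limma adjusted p = 1.27e-04), while its receptor gene Havcr2 (TIM-3) was at 0.52 and Icosl, the ligand of ICOS, at -0.47, and neither was called.

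Cytokine and growth factor genes moved equally in both directions, 6 of 28 higher and 6 lower (21.4% each). Il6 was at 396, 535 and 531 in the thymic and 10.1, 6.25 and 11.4 in the splenic libraries, and no splenic value came near a thymic one (log2 fold change 5.6 ± 0.33 (SE), limma adjusted p = 2.44e-10). Pdgfa, a platelet-derived growth factor chain, was at 160.1, 109 and 153 against 6.41, 7.497 and 13.04 (log2 fold change 3.86 ± 0.34 (SE), limma adjusted p = 8.71e-08). Bmp2, a bone morphogenetic protein, fell (log2 fold change -2.87 ± 0.62 (SE), limma adjusted p = 0.00202). Il1b, which encodes IL-1 beta, was at 36746, 37920.4 and 36918 against 37896, 62793 and 45958 and was not called (-0.36), nor was Tgfb1 (-0.8). Igf1 was called higher (log2 fold change 2.82 ± 0.84 (SE), limma adjusted p = 0.0203), with a splenic value of 46.9 in replicate 2 against 5.49 and 3.26 in the others, and was not called without splenic replicate 3 (2.14, limma adjusted p = 0.125).

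Of 44 receptors for cytokines and growth factors, 6 were higher (13.6%) and 10 lower (22.7%), or 6 lower without splenic replicate 3. Ngfr, the low-affinity receptor for neurotrophins, was at 817, 830.3 and 1246 in the thymus and 18.3, 7.497 and 9.78 in the spleen (log2 fold change 6.29 ± 0.56 (SE), limma adjusted p = 7.69e-08). Il7r, a receptor chain shared by IL-7 and TSLP, was at 1061, 1373 and 1115 against 64.1, 93.1 and 34.2 (log2 fold change 4.29 ± 0.44 (SE), limma adjusted p = 5.22e-07), and Il1r1, the signaling receptor for IL-1, at 223, 396 and 470.4 against 14.6, 12.5 and 4.89 (log2 fold change 5.01 ± 1.06 (SE), limma adjusted p = 0.00177). Il2ra, the high-affinity chain for IL-2, was higher (log2 fold change 3.16 ± 0.72 (SE), limma adjusted p = 0.00311). Flt3, the receptor on which DC development depends, was at 12141, 13559.9 and 11737 against 14596, 15412 and 17274 and was not called (log2 fold change -0.34 ± 0.13 (SE), limma adjusted p = 0.0781).

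Transcription factors of the DC list were higher in 9 of 62 (14.5%) and lower in 13 (20.97%). The vitamin D receptor gene Vdr was at 1083, 1041 and 1087 in the thymus and 59.5, 61.2 and 61.9 in the spleen (log2 fold change 4.11 ± 0.22 (SE), limma adjusted p = 8.03e-11). Zbtb16 (PLZF) and Ikzf3 (Aiolos) fell, at -3.29 ± 0.67 and -2.65 ± 0.57 on the log2 scale (limma adjusted p = 0.0013 and 0.00198), as did Tbx21. Bhlhe40 was at -0.63 and was not called. Without splenic replicate 2 only 5 members were called higher. Among 17 genes of retinoid metabolism and its receptors, 4 were higher (23.5%) and 1 lower. Rxra, the partner receptor of Vdr and of the retinoic acid receptors, was at 2208, 2335 and 2506 against 395, 208 and 521 (log2 fold change 2.74 ± 0.35 (SE), limma adjusted p = 8.26e-06). Dhrs9, a retinol dehydrogenase, was higher (log2 fold change 2.83 ± 0.73 (SE), limma adjusted p = 0.00845). Tgm2, a transglutaminase induced by retinoic acid, fell from 19784, 13335 and 24670.5 to 1089, 1428 and 1092 (log2 fold change -3.97 ± 0.47 (SE), limma adjusted p = 3.65e-06), and its exons overlap genes of the other strand. Rara and Rxrb, further receptors of the family, were not called (0.96 and -0.73).

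Genes that mature CCR7+ DCs express moved in part. Of 26 tested, 8 were higher (30.8%) and 3 lower, with a median of 0.24. Socs2, a suppressor of cytokine signaling, was at 662, 724 and 653 in the thymic and 19.2, 16.2 and 24.4 in the splenic libraries (log2 fold change 5.04 ± 0.25 (SE), limma adjusted p = 4.35e-11), and in mature thymic cDC2 at 23488 ± 4422 (SD, n = 3). Cacnb3, a calcium channel subunit, was at 1037, 1322 and 1299 against 37.5, 15.6 and 70.1 (log2 fold change 5.09 ± 0.4 (SE), limma adjusted p = 1.49e-08) and at 77583 ± 13594 in the mature cells (SD, n = 3). Ccl22 and Ccl17 averaged 192022 ± 33598 and 9148 ± 2502 there (SD, n = 3). Cd83, a classical maturation marker, was not called and had higher values in the spleen (-0.7), and Tmem123 was at 0.77. Genes named under other lists went both ways with maturation. Il2ra, Serpinb6b and Serpinb9 averaged 88.1, 657 and 1093 in immature and 6383, 55665 and 31572 in mature thymic cDC2 (n = 3 each). Plet1, Aqp3 and Cdh1 averaged 3908, 2045 and 10048 in the immature and 46.7, 10.3 and 186 in the mature cells. The part of mature cells in the immature libraries was not tested.

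Cell cycle genes were higher in 8 of 40 tested (20%) and lower in 0, with a median of 0.81. Ccnb1, the mitotic cyclin, was at 861, 923 and 1234 in the thymus and 376, 422 and 231 in the spleen (log2 fold change 1.58 ± 0.41 (SE), limma adjusted p = 0.00811), and Cdk1, its kinase, at 1233, 1243 and 1545 against 553, 547 and 528 (log2 fold change 1.3 ± 0.18 (SE), limma adjusted p = 1.81e-05). Ccna2 was higher (log2 fold change 1.31 ± 0.33 (SE), limma adjusted p = 0.00701), and so was the spindle checkpoint gene Bub1 (log2 fold change 1.28 ± 0.43 (SE), limma adjusted p = 0.0388), though not without thymic or splenic replicate 3 (limma adjusted p = 0.120 and 0.155). Tubb5 and Ccnd1, a tubulin and the cyclin of early G1, were at 0.66 and 0.55. In a fit of the 6 cDC2 libraries alone, 13 members were called higher.

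Genes that tissue dissociation and acute stimulation induce were lower in 5 of 28 (17.9%) and higher in 2. Nr4a1, a nuclear receptor of the immediate-early response, was at 20241, 18848 and 16907 in the thymus and 89416, 60331 and 128878 in the spleen (log2 fold change -2.25 ± 0.38 (SE), limma adjusted p = 1.95e-04). Klf2, a factor of quiescence and trafficking, was at 1017, 1593 and 1125 against 5698, 1654 and 6200.2 (log2 fold change -1.67 ± 0.48 (SE), limma adjusted p = 0.0175), with splenic replicate 2 near the thymic values, and was not called without splenic replicate 3 (-1.33, limma adjusted p = 0.102). Ier3 and Socs3, a stress-response gene and a suppressor of cytokine signaling, were higher (log2 fold change 4.05 ± 0.23 (SE), limma adjusted p = 1.20e-10 and log2 fold change 2.91 ± 0.4 (SE), limma adjusted p = 2.18e-05). Zfp36 and Atf3 were at -0.51 and -0.45 and were not called. The part of tissue digestion in these values was not tested.

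Lipid genes were higher in 9 of 35 tested (25.7%) and lower in 1. Scd1, a fatty acid desaturase, was at 664, 882 and 634 in the thymus and 69.6, 85.6 and 92.9 in the spleen (log2 fold change 3.11 ± 0.22 (SE), limma adjusted p = 4.31e-09), Lpl, lipoprotein lipase, at 1459, 1064 and 1048 against 167, 329 and 226 (log2 fold change 2.34 ± 0.66 (SE), limma adjusted p = 0.0144), and Abca1, a cholesterol exporter, at 1185, 1222 and 864 against 210.5, 271 and 262 (log2 fold change 2.12 ± 0.54 (SE), limma adjusted p = 0.00772). Fabp4, a fatty acid carrier, was the member that fell (log2 fold change -3.27 ± 0.6 (SE), limma adjusted p = 4.87e-04). Srebf2 and Npc2 of cholesterol synthesis and transport were at -0.39 and 0.5 and were not called. Genes of metal binding and transport were higher in 3 of 21 and lower in 3 (14.3% each). Slc30a4, a zinc exporter, was at 780.3, 1105 and 939 against 139, 93.1 and 130.4 (log2 fold change 2.96 ± 0.26 (SE), limma adjusted p = 5.93e-08), and Slc11a1 (NRAMP1), which moves iron and manganese out of phagosomes, fell from 1228, 552 and 1118 to 104, 97.1 and 81.00 (log2 fold change -3.27 ± 0.36 (SE), limma adjusted p = 1.18e-06). Slc40a1, the iron exporter ferroportin, was lower (log2 fold change -3.4 ± 1.07 (SE), limma adjusted p = 0.0286) but not called without thymic or splenic replicate 2 (limma adjusted p = 0.110 and 0.112), Mt2, a metallothionein, was higher (log2 fold change 2.61 ± 0.74 (SE), limma adjusted p = 0.0157), and Fth1, a ferritin chain, was not called (-0.75).

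Marker genes of other cells were read in the same way, and their part in the results above was not tested. Of 23 macrophage genes, 7 were higher and 5 lower, or 4 higher without thymic replicate 3. Their summed level was 28312 to 38093 in the thymus and 25887 to 39178 in the spleen. Vsig4 had no read in the 6 libraries. Gpnmb, a glycoprotein of phagocytes, was higher (log2 fold change 4.19 ± 0.93 (SE), limma adjusted p = 0.00266), Spic, the factor of splenic red pulp macrophages, was lower, at 29.9, 32.8 and 31.2 against 303, 346 and 229.8 (log2 fold change -3.17 ± 0.49 (SE), limma adjusted p = 8.12e-05), and Cd68 was not called (-0.59). Of 16 monocyte genes, 6 were higher and 5 lower, with sums of 74264 to 80730 against 104034 to 174970. Nr4a1, the immediate-early gene given above, is on this list and made up most of each splenic sum (89416, 60331 and 128878, against 20241, 18848 and 16907 in the thymus). Ly6c2 was higher (log2 fold change 3.07 ± 0.63 (SE), limma adjusted p = 0.00143), while Treml4 and Ifitm6, known from Ly6C-low monocytes, were lower (log2 fold change -3.75 ± 0.47 (SE), limma adjusted p = 7.30e-06 and log2 fold change -4.07 ± 0.75 (SE), limma adjusted p = 4.78e-04). Ace, given above with the largest falls, is on this list too.

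T-lineage genes showed both directions, with 11 of 24 higher and 2 lower, and 7 higher without thymic replicate 3 or splenic replicate 3. Their sum was 1063 to 1570 in the thymus and 2878 to 3096 in the spleen, where Satb1 made up most of it (1960.2, 2342 and 2237). Transcripts known from thymocytes were few but were seen in the thymic libraries. Rag1 of receptor gene rearrangement was at 23.5, 51.6 and 24.9, with no read in the spleen, and Dntt, terminal transferase, at 30.96, 26.8 and 29.6 against 0, 1.25 and 0, both named after their values were seen. Cd8b1 was at 93.9, 75.7 and 103 against 6.41, 6.87 and 9.78 (log2 fold change 3.41 ± 0.33 (SE), limma adjusted p = 2.95e-07).

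Of 13 genes of thymic epithelium and stroma, 8 were higher and 0 lower. Their sum was 8462 to 8639 in the thymus and 2325 to 2423 in the spleen, and Epcam, Pecam1 and Kdr made up most of it, of which Kdr was higher (log2 fold change 2.95 ± 0.26 (SE), limma adjusted p = 8.94e-08) and Pecam1 was not called (0.44). The median was 2.34, or 0.75 with the 4 genes that had no read in one tissue at their bound. Psmb11, the proteasome subunit of cortical thymic epithelium, had 7.47, 20.8 and 10.9 in the thymus and no read in the spleen, and Krt5, a keratin of medullary epithelium, 43.8, 19.4 and 34.3 against 0.915, 0 and 0, both named after their values were seen. Col1a2 had no read in the 6 libraries. Foxn1, the factor that defines thymic epithelium, had 17 reads over the 3 thymic libraries, and Psmb11 had 45.

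B-cell genes were higher in 1 and lower in 6 of 10 tested, with sums of 3750 to 5009 in the thymus and 5900 to 7183 in the spleen. Vpreb3 had no read in the 6 libraries and Pax5 none in the thymic ones. Bank1 was at 17.1, 29.5 and 14.02 against 425, 670.4 and 372 (log2 fold change -4.55 ± 0.51 (SE), limma adjusted p = 1.87e-06) and Blk at 0, 3.35 and 1.56 against 71.4, 67.5 and 57.03 (log2 fold change -4.89 ± 0.87 (SE), limma adjusted p = 3.39e-04), while Ighm overlapped (-0.34). NK and ILC genes were lower in 4 of 6 and higher in 0, with sums of 45.2 to 90.4 against 233 to 378. Ncr1 and Prf1 had no read in the thymic libraries, and Gzma, given above, is on this list.

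Plasmacytoid DC genes were higher in 9 of 14 and lower in 4, with sums of 25086 to 28739 in the thymus and 15576 to 15849 in the spleen. Siglech was at 732, 1120.2 and 813 against 81.4, 122 and 55.4 (log2 fold change 3.4 ± 0.77 (SE), limma adjusted p = 0.00304), Bst2 and Tcf4 were higher (log2 fold change 2.15 ± 0.3 (SE), limma adjusted p = 2.76e-05 and log2 fold change 1.27 ± 0.23 (SE), limma adjusted p = 4.26e-04), and Gzmb was at 0, 2.68 and 1.56 against 71.4, 41.2 and 65.2. The markers of cDC1 were higher in 8 of 15 and lower in 2, with sums of 71668 to 80609 against 38397 to 59224. Cd8a was at 755, 1206 and 1289.7 against 286, 218 and 156 (log2 fold change 2.3 ± 0.23 (SE), limma adjusted p = 3.15e-07) and Naaa at 6007, 6627 and 7341 against 1558, 1189.6 and 1431 (log2 fold change 2.26 ± 0.25 (SE), limma adjusted p = 1.18e-06). The 2 that fell, named after their values were seen, were Clec9a, a receptor for dead cells, at 225, 423 and 405 against 827, 996 and 924 (log2 fold change -1.43 ± 0.23 (SE), limma adjusted p = 1.21e-04), and Cadm1, an adhesion molecule, at 156, 190.2 and 198 against 372, 469.8 and 433 (log2 fold change -1.23 ± 0.28 (SE), limma adjusted p = 0.00325). Itgae, given above, is on this list and was higher. Xcr1, named after its values were seen, was at 88.6, 251 and 364 against 64.1, 50.6 and 26.1 (log2 fold change 2.17, limma adjusted p = 0.00101). In thymic cDC1 Cd8a, Naaa and Itgae averaged 6610.1 ± 1166, 46662 ± 4358 and 16233 ± 1306 (SD, n = 4). Wdfy4, required for cross-presentation by cDC1, was not called (0.51).

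Of 4 neutrophil genes tested, 2 were higher, Cxcr2 and the collagenase gene Mmp8 (at 26.7, 12.7 and 10.9 against 3.66, 5.62 and 4.89, and not called without thymic replicate 1 or splenic replicate 1 or 3, at limma adjusted p = 0.194, 0.140 and 0.102, nor in edgeR or DESeq2, at adjusted p = 0.215 and 0.460), and 0 lower, with sums of 679 to 922 against 39.99 to 181. Ly6g, Camp, Retnlg, Elane and Lcn2 had no read in the 6 libraries, and S100a8 and S100a9 had 3 and 6 reads over the thymic libraries and none in the splenic ones. Of 4 erythroid and platelet genes tested, 1 was higher and 2 lower, with sums of 24.9 to 47.0 in the thymus and 46.2 to 58.7 in the spleen.

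**Figure D4:**
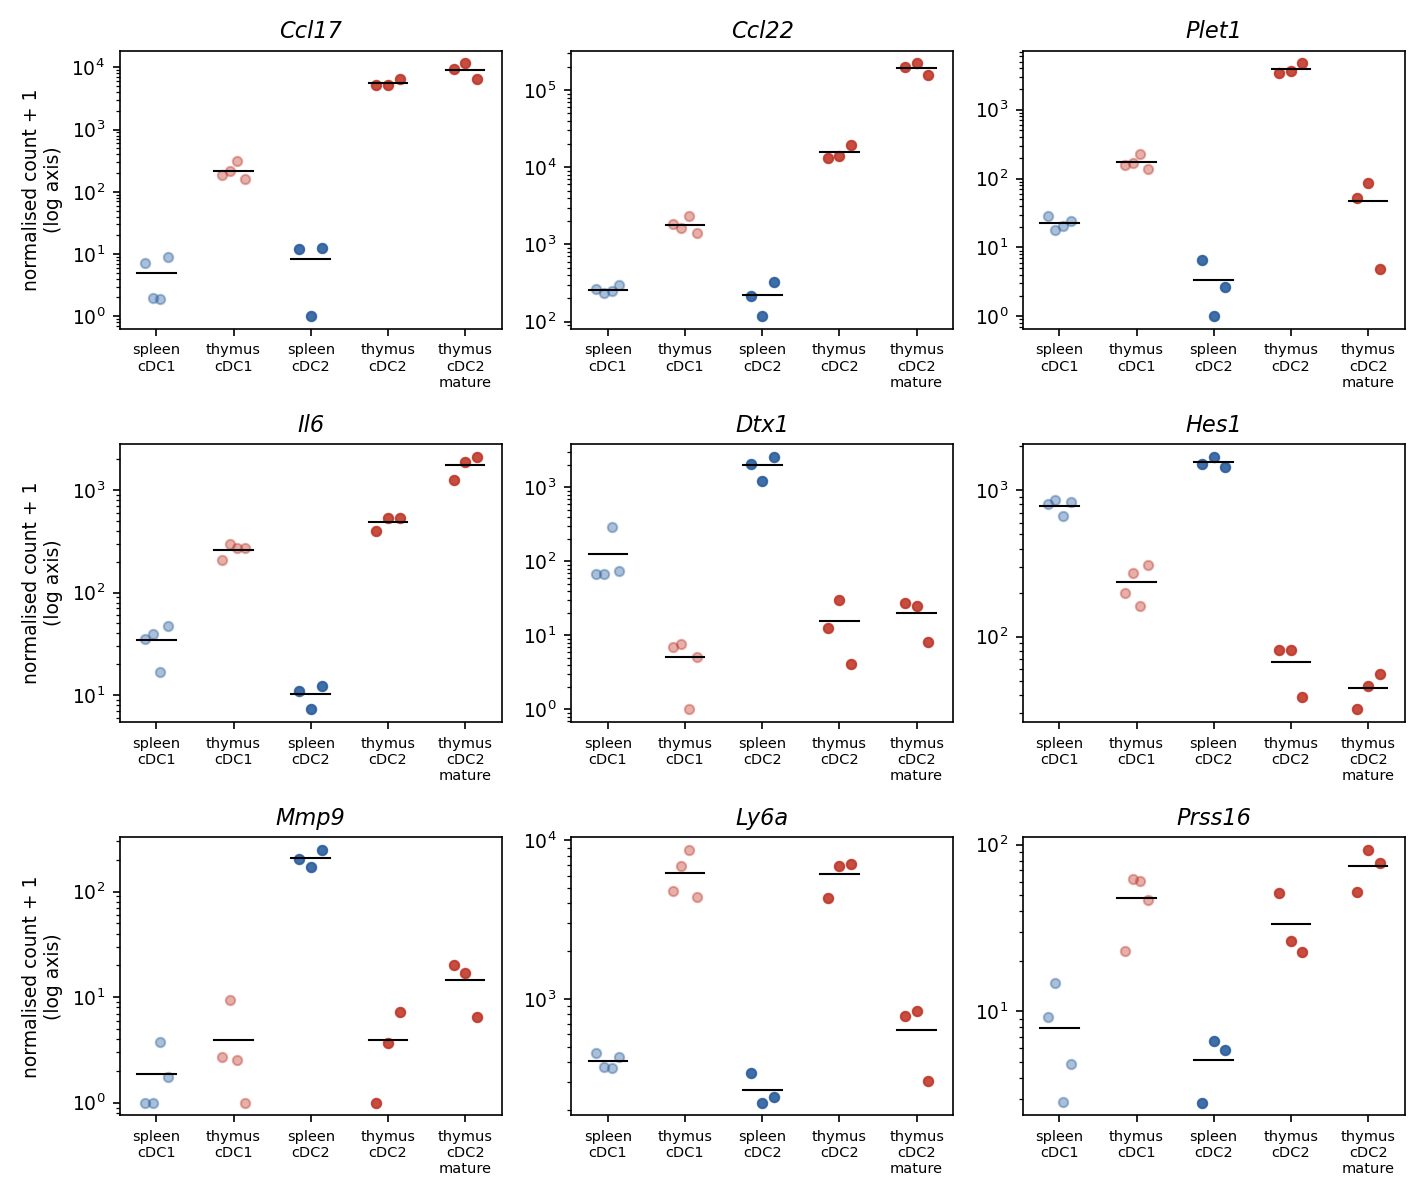
Normalized read count plus 1 on a log axis (y axis) of 9 genes in immature cDC1 and cDC2 of spleen and thymus and in mature thymic cDC2 (x axis), each point 1 sample counted, with a line at the group mean, red for thymus and blue for spleen. Ccl17, Ccl22, Plet1, Il6, Ly6a and Prss16 are higher and Dtx1, Hes1 and Mmp9 lower in thymic than in splenic immature cDC2.

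To see where the cDC2 differ from the other subset, the tissue difference of immature cDC2 was compared with that of immature cDC1 in the same model. The cDC1 libraries of each tissue came from the same pools of animals as the cDC2, and the 4 samples in each tissue held 3 pools, 1 of which gave 2 samples. In cDC1, 1310 genes, or 8.75%, were called different between tissues. Of the genes called in both subsets, 696 had the same direction, which is 32.8% of the cDC2 list and 53.1% of the cDC1 list, and 46 had the opposite one. The difference between the tissue effects was itself called for 745 genes, 4.98%, with 487 more positive in cDC2 (3.25%) and 258 more negative (1.72%). With the cDC1 libraries of a pool averaged, a setting chosen after seeing the data, 671 genes were called, of which 643 were among the 745. Among the 2120 genes called in cDC2, the difference between the tissue effects was called for 540, and in 505 of these it had the same sign as the cDC2 effect. These genes were chosen for their cDC2 effect, which is a term of the difference, so that the shared sign is largely set by the choice.

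Flt1, a receptor for VEGF, had the most positive difference, 8.08 ± 0.45 on the log2 scale (limma adjusted p = 6.62e-10). It was at 2979, 2254 and 2565 in thymic and 56.7, 23.7 and 78.2 in splenic cDC2, and at 219.8 ± 53.6 in thymic and 1097 ± 147 in splenic cDC1 (SD, n = 4). It rose in the thymus in cDC2 and fell in cDC1 (5.74 against -2.34). Plet1 (1600029D21Rik) followed, with 7.64 ± 1.19 (limma adjusted p = 3.99e-04), and Cd209e with 7.36 ± 0.73 (limma adjusted p = 2.17e-06). In thymic cDC1 these genes averaged 171 ± 39.8 and 99.1 ± 22.6 (SD, n = 4), far under the cDC2 values given above. Ptprf, a receptor tyrosine phosphatase, and Ccl24 differed by 6.62 and 6.54. Gpr116 (Adgrf5) differed by 6.49, but in cDC2 it was near the floor of 3 reads in both tissues, and the effect was one of cDC1, at 2.26 ± 2.64 in the thymus and 199 ± 36.6 in the spleen (SD, n = 4).

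The most negative difference was that of Mmp9, -6.92 ± 1.3 (limma adjusted p = 0.00219). In cDC1 it was at 2.89 ± 3.703 in the thymus and 0.885 ± 1.31 in the spleen (SD, n = 4), so that a fall in cDC2 stood against 0.82 in cDC1. Gzma differed by -6.3, Fat2 by -5.77 and Fabp4 by -5.54, all with a fall in cDC2. Btnl4 (-6.38) and Padi1 (-5.64) were near the floor in cDC2 of both tissues, and their effects were ones of cDC1.

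**Figure D5:**
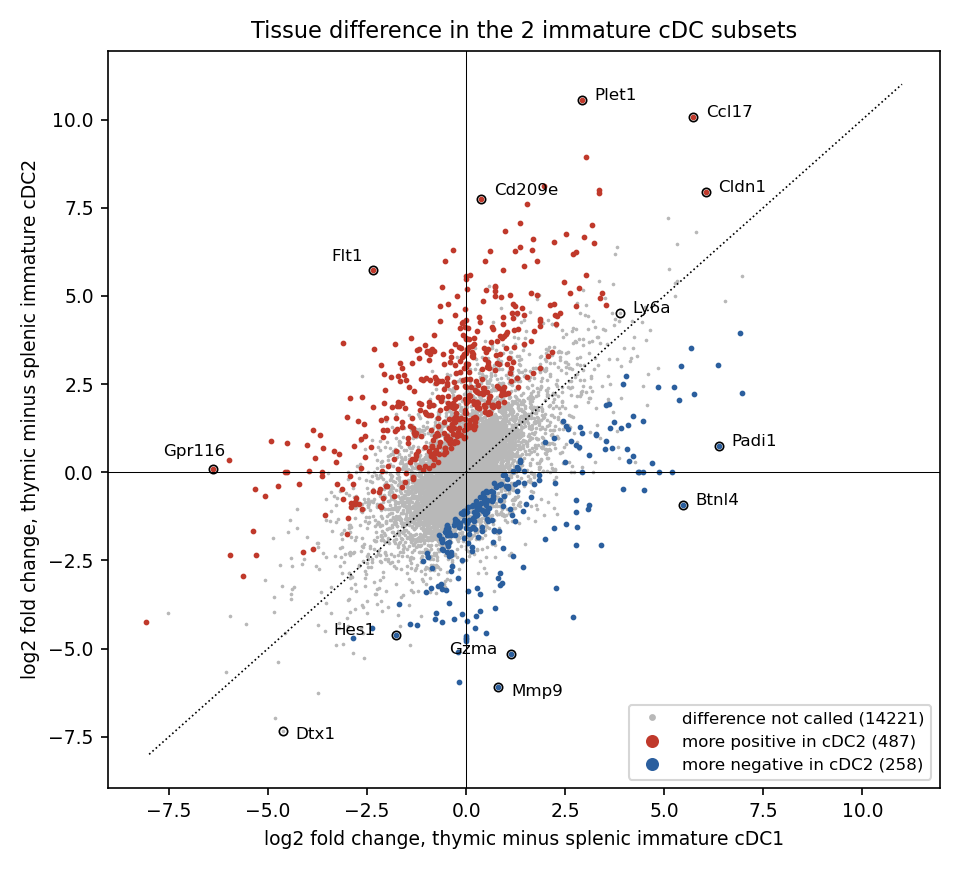
Log2 fold change of thymus over spleen in immature cDC2 (y axis) against that in immature cDC1 (x axis), each point 1 gene tested, with the 745 genes whose effects differ coloured by direction. The dotted diagonal marks equal effects in both subsets, and Ly6a lies near it, and Flt1 and Mmp9 far from it.

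The marker genes took different places in this comparison. Ccl17 was higher in the thymus in both subsets, at 218 ± 66.9 in thymic and 4.04 ± 3.64 in splenic cDC1 (SD, n = 4), and its difference of 4.32 ± 0.94 was called (limma adjusted p = 0.00735). Ccl22 was higher in thymic cDC1 by 2.78, and the difference was 3.47 ± 0.36 (limma adjusted p = 3.83e-06). For Dtx1 the cDC1 value was -4.63 and the difference of -2.71 ± 1.29 was not called (limma adjusted p = 0.34), and for Hes1 it was -1.78, with a called difference of -2.84 ± 0.85 (limma adjusted p = 0.0635). Ifi44 and Ifit1 were higher by 3.57 and 2.97 in cDC1, with differences of 0.058 ± 0.39 and 0.069 ± 0.49 that were not called. Prss16 was 2.76 higher in thymic cDC1, and its difference was -0.052 ± 0.93 (limma adjusted p = 0.994).

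By list, the differences were called positive for 8 of 23 chemokine ligands and negative for 1, and positive for 8 of 32 C-type lectins and negative for 0. Of 22 type 2 response genes, 7 were positive and 0 negative, and the median tissue effect of the list was 1.72 in cDC2 and 0.056 in cDC1. Of 46 interferon-stimulated genes, 4 were positive and 8 negative, with medians of 1.40 and 1.66. Of 33 Notch pathway genes, 2 were negative and 0 positive, with medians of -0.12 and 0.043. Over all genes the median tissue effect was 0.0041 in cDC1.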

How the data were processed

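Per the methods and labels, the authors used Cutadapt to trim paired reads of a stranded mRNA library, STAR (version 2.6) for alignment to mm10 and HTSeq-count for counts per gene, and divided these counts by DESeq2 (version 1.24.0) size factors. The deposited values are this signal, for 37734 genes. The annotation release and the strand setting of the counting are not given in the sources used here. Whole reads were recovered for 100% of the values of the 6 cDC2 libraries (within 0.01 reads). The floor of 3 reads covers counting error only. Values after ± are standard deviations between samples where marked SD, and otherwise standard errors of the limma fit.

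The log2 of the value plus a pseudocount of 1 was fitted in limma (version 3.58.1, R 4.3.3) with a mean for each of the 6 groups of the series and an intensity trend, over 14966 genes that reached 10 in 3 or more of 20 samples. Splenic cDC1 replicates 4 and 5, which shared pool, index and lane and differed less than any other pair of their group, were summed. Thymic cDC1 replicates 3 and 4 shared them too, but differed more than the other pairs of their group, and were kept as a pair of samples. A gene was called at p below 0.1 after Benjamini-Hochberg adjustment and a log2 fold change above 1 in size. Fold changes are on the log2(value + 1) scale, which understates those of low genes. With 3 libraries against 3 an exact permutation test cannot go below p = 0.1, so that single genes were tested in the fit across all genes only. The fits were tested on simulated data.

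Alternatives were edgeR (version 4.0.16) and DESeq2 (version 1.42.0) on recovered reads, TMM scaling, other filters, pseudocounts and thresholds, the lane, replicate and pool blocks, the 6 libraries alone and omission of each library. Thymic cDC1 replicate 3 was left out of the count tests, because a separate check did not accept its values as whole reads. Within 0.01 reads, however, 100% of its values were whole. The members, marker genes and 40 gene lists were chosen with earlier results of these data known. Named were the markers, sort genes and proteases, the 12 largest rises and falls with a mean of at least 100 and no overlap, per list up to 4 called genes with a mean of at least 50 and 2 genes not called, and the 6 largest differences from cDC1 in each direction. Gene positions and exon overlaps came from GENCODE M21 (37607 identifiers matched).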

Additional observations from a re-analysis of the deposited data

Results flagged for a closer look

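The tissue difference was tested for a difference between immature cDC2 and cDC1 across all genes, and 745 genes passed. By the rule for named genes, the 6 most positive differences were those of Flt1 (8.08), Plet1, listed as 1600029D21Rik (7.64), Cd209e (7.36), Ptprf (6.62), Ccl24 (6.54) and Gpr116 (6.49), on the log2 scale. The 6 most negative were those of Mmp9 (-6.92), Btnl4 (-6.38), Gzma (-6.30), Fat2 (-5.77), Padi1 (-5.64) and Fabp4 (-5.54). In Flt1, Plet1, Cd209e, Ptprf, Ccl24, Mmp9, Gzma, Fat2 and Fabp4 the larger tissue effect was that of cDC2. In Gpr116, Btnl4 and Padi1 it was that of cDC1, and the cDC2 values of both tissues were near the floor of 3 reads. Without splenic replicate 2 the count of genes with a different tissue effect was 834, of which 57.0% were positive. The cDC1 and cDC2 of a tissue came from shared pools of animals, and a fit with the pool as a block gave 1072 genes, of which 717 were among the 745.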

How the results depend on the processing

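The 2120 called genes numbered 2148 in edgeR and 2308 in DESeq2 on the recovered reads, of which 1955 and 2008 were among the 2120, and between 1756 and 2114 when 1 library was left out. With a value of at least 10 in every library compared they numbered 1371, fewer genes being tested, without a fold threshold 3965 and with a log2 fold change above 2 999. The 745 genes with a different tissue effect in cDC2 and cDC1 numbered 454 with a value of at least 10 in every library compared, 428 with a log2 fold change above 2, and between 591 and 834 when 1 library was left out. They numbered 734 in edgeR, 991 in DESeq2 and 671 with each cDC1 pool counted once, where the 12 genes named for this difference were all called.

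Replicate numbers did not pair thymic with splenic libraries. The correlations of the deviations of same-numbered libraries were -0.175, -0.125 and 0.0554, and with the replicate number as a block the 6 libraries gave 2119 called genes, against 2342 without it. Of the named genes, Igf1, Klf2 and Mmp8 were not called under this block, and Ccl3 was called lower (adjusted p = 0.0132).

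Of the named genes, Cd74, Gpr116, Ccr7, H2-Aa and Stat6, which were not called, changed sign under an alternative. Cd74 was at -0.031 in edgeR, -0.022 in DESeq2 and -0.12 with the lane as a covariate, and between -0.20 and 0.30 when 1 library was left out. Gpr116 was at -0.10 in edgeR, -0.10 in DESeq2 and -0.0037 with the lane, and between -0.43 and 0.69 when 1 library was left out. Without 1 library Ccr7 ranged from -0.45 to 0.27, H2-Aa from -0.046 to 0.20 and Stat6 from -0.31 to 0.023. With a pseudocount of 0.1 the calls of Ccr2, Tlr5, Tlr7, Slc40a1, Mt2 and Mmp8 were lost. The call of Mmp8 was also lost in edgeR, in DESeq2 and with a pseudocount of 8, that of Tlr5 without a filter and with the lane as a covariate, and that of S1pr5 in DESeq2. Ccl3 was called lower with a pseudocount of 8 (adjusted p = 0.0743). When 1 library was left out, Notch2, Tgfb1, Rara, Rxrb and Irf8, not called otherwise, were called in at least 1 case. Depth limits what can be said of genes with a mean below 10, which made up 122 of the called ones.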
